A study of Homo sapiens with 7 samples.

Results

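The 40 genes described here act in G2 and mitosis: mitotic cyclins and kinases, spindle checkpoint proteins, kinetochore proteins, kinesins, spindle assembly factors and cytokinesis factors. They were listed by name, with no threshold on measured values but with earlier results of these data known, and all 40 were found among the 13142 genes with values. All 40 also passed the filter on low values (log2 RPKM above 0 in at least 3 libraries), which kept 11154 genes. Expression was measured by RNA-seq in BHT-101, a human anaplastic thyroid cancer cell line. The groups are wild-type cells in 3 biological replicates (WT1, WT2, WT3) and 4 ASH1L knockout clones (KO1 to KO4) with 1 library each. ASH1L, a Trithorax-group protein, methylates histones. The labels put its premature stop codon after amino acid 413 in KO1, 610 in KO2 and 2129 in KO3, on both alleles, and after 2169 and 2174 in KO4. All libraries come from cells in the same medium with serum, and no other agent is named in the labels. Each knockout genotype is a single clone, and no clone with intact ASH1L was analysed here, so ASH1L loss and other differences of a clone from the wild-type culture cannot be told apart.

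Levels are given in log2 RPKM, reads scaled to gene length and library size, so they can be compared between genes. A difference of 1 on this scale is a 2-fold difference. With an assumed prior count the mean library was estimated at 58.0 M reads, and the member value with the fewest reads (in CENPA) then stands for about 1241 reads, a counting error of 2.84%. ASH1L itself was at 3.34, 3.30 and 3.22 in WT1 to WT3 and at 2.69, 2.54, 2.42 and 3.74 in KO1 to KO4, so that KO1, KO2 and KO3 lay below all WT samples and KO4 above them (difference of means -0.44 ± 0.31 SE, limma, adjusted p = 0.512). A premature stop may leave transcript levels as they are, so these values are no test of the labels. Of 14 thyroid and epithelial markers 8 had values. The keratin KRT18 was high, at a WT mean of 7.70, whereas PAX8, a thyroid transcription factor, did not pass the filter. PAX8 had a WT mean of -2.61 and ran from -5.02 (KO1) to -1.20 (KO2) in the clones. Of 7 tested 1 was above WT and 6 were below (median -0.64), with KRT18 called lower in KO1 (6.70, limma, adjusted p = 0.0347). By clone the medians of these 7 genes were -1.18, 0.35, -1.27 and -0.57 in KO1 to KO4. The clones thus did not go the same way, and in KO2 5 of the 7 were above WT. The lists of other cell types gave few values, 3 of 15 leukocyte markers and 4 of 15 fibroblast and endothelial markers. Only 1 and 3 of these passed the filter on low values. The leukocyte marker that passed was CD3D, a T-cell receptor subunit. It had a WT mean of 3.24 and ran from -7.75 (KO1) to -0.47 (KO4) in the clones. LUM and PDGFRA, of fibroblasts, had WT means of 5.31 and 3.21 and ran from 4.21 to 5.85 and from -6.82 to 2.37 in the clones, and COL1A1 had 2.12 and ran from -0.09 to 2.86. CD3D and PDGFRA were called lower in KO1 (limma, adjusted p = 0.00246 and 0.0226). The part of such cells in the results was not tested.

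Cells build up the proteins of mitosis late in the cycle. CDK1 with cyclin B drives entry into mitosis, Aurora and Polo kinases build the spindle, the checkpoint holds the chromosomes until every kinetochore is attached, and CDC20 then activates the anaphase-promoting complex, which marks securin and cyclin B for destruction. Many of these genes are transcribed together, repressed in resting cells by the DREAM complex and activated later by MYBL2 and FOXM1, through a promoter element called the cell cycle genes homology region (CHR) that often stands near CCAAT boxes, which NF-Y binds. In bulk RNA, more cells in G2 and M and more of these transcripts per cell cannot be told apart.

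These elements are known from genes of this kind, so a larger share than among all promoters could be foreseen before any value was seen. The counts below are no test of why members were high or low in the same libraries. In the RefSeq promoter table (GRCh38.p14), 34 members had an entry. For each gene only the first entry with a full window was kept, so other starts were not searched. The shares of all promoters below also take in genes not tested here. The window ran from 250 bases before to 30 bases after the start that RefSeq gives, which can differ from the GENCODE gene positions printed with the results. The CHR was searched as TTTGAA and the CCAAT box as CCAAT, each on both strands; the 2 do not overlap in sequence. TTTGAA stood in 23 of the 34 windows (67.6%), against 14.7% of all 27305 promoters. CCAAT stood in 25 (73.5%, against 34.7%), at 2 or more places in 16 (47.1%, against 10.8%). Both were present in 19 (55.9%, against 5.6%). A match is a description of the letters and not evidence of a bound site. The windows below, 5′ to 3′ with the matches in capitals (TTCAAA and ATTGG are the same motifs on the other strand), belong to the members with the largest mean differences among those with an entry (TOP2A, CDC20 and GTSE1), to NUSAP1, whose clones lay above all WT samples, and to KIF4A, the member with the lowest mean difference.
TOP2A, chr17:40417867-40418146, minus strand: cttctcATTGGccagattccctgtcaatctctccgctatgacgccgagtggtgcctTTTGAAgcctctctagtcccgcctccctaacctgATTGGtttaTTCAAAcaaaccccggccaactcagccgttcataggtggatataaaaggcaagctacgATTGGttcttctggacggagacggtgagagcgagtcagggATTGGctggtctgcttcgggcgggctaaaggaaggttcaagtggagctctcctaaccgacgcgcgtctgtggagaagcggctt
CDC20, chr1:43358731-43359010, plus strand: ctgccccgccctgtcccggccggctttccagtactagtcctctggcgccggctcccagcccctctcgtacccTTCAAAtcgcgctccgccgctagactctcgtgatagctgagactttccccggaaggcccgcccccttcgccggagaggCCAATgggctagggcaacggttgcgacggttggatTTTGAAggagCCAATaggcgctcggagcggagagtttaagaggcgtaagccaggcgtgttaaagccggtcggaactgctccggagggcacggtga
GTSE1, chr22:46296620-46296899, plus strand: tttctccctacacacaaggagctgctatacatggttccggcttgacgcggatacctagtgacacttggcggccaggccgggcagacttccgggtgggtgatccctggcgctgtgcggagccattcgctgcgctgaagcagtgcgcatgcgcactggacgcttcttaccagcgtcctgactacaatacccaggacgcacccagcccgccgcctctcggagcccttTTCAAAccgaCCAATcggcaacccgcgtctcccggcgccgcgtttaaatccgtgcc
NUSAP1, chr15:41332631-41332910, plus strand: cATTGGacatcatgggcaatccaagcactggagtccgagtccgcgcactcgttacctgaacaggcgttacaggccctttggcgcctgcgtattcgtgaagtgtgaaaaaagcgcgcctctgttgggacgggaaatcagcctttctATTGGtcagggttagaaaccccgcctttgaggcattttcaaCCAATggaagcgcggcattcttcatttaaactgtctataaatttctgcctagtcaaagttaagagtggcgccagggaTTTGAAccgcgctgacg
KIF4A, chrX:70289854-70290133, plus strand: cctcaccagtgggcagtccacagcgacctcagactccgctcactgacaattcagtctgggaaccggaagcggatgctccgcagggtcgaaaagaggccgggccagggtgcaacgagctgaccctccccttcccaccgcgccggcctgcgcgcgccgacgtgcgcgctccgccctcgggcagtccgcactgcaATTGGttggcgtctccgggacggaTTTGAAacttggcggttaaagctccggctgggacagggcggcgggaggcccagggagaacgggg
KIF4A thus carries the same pair of elements as the other 4 printed, although its values across the clones, given below, were unlike theirs. These windows do not stand for the set, where 19 of 34 had both. CCNA2, next in mean difference among those with an entry (0.41), had only 1 of the 2. Among the other members with all clones above WT, MAD2L1 had both, BUB1B only 1, and BIRC5 no entry. Whether members with and without the pair differed in their values was not tested.

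With the clones taken as a group, 30 of the 40 genes had a mean above that of WT, against 47.0% of all genes tested, and the median difference was 0.19 against -0.02. None passed the test on its own: 0 of 40 were called with limma at an adjusted p under 0.05, where 0.412% of all genes were (0.170% higher and 0.242% lower), and adjusted p-values of the members ran from 0.134 to 0.990. At an unadjusted p under 0.05, 5 members were higher and 0 lower, against 7.13% and 8.59% of all genes. All 4 clones lay above all 3 WT samples in 6 members, 15%, where 8.88% of all genes did. They lay below in 0 members, against 10.1% of all genes. In the other 34 members the groups overlapped. With quantile normalization TOP2A alone passed (0.57, limma, adjusted p = 0.0473), where 114 of the 11154 genes tested did. With weights for the libraries TOP2A, BIRC5 and GTSE1 passed (limma, adjusted p = 0.0194, 0.0391 and 0.0402). In that setting 2146 of the 11154 genes were called instead of 46, a larger share than the 3 of 40 members. Without KO1 the median was 0.11 with 27 of 40 above WT, and without WT3 it was 0.12 with 26 of 40.

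**Figure D1:**
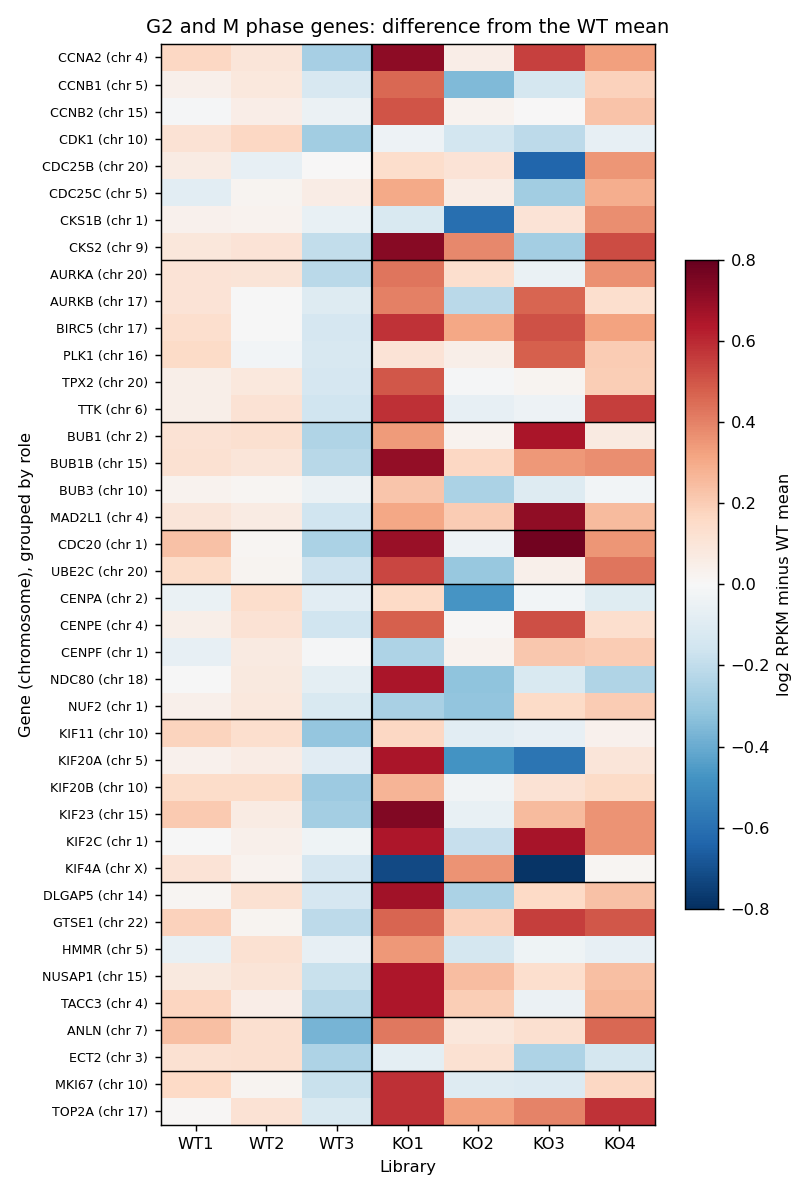
Difference of log2 RPKM from the WT mean (colour, red higher and blue lower) for the 40 genes in rows, grouped by role and labelled with their chromosome, in the 7 libraries in columns. KO1 is red in 34 of 40 rows, WT3 is below the WT mean in 38, and KIF4A stands out as blue in KO1 and KO3.

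In KO1 the members had a median of 0.46 above the WT mean, with 34 of 40 above it, where 50% of all genes were. In KO4 the median was 0.23, also with 34 of 40 (all genes 49.2%). KO3 had a median of 0.07 with 23 of 40 (48.4%), and KO2 one of 0.00 with 20 of 40 (49.0%). KO1 was the highest clone in 25 members, 62.5%, against 28.1% of all genes. KO2 was the lowest in 27, but the share of all genes with KO2 lowest was not taken, so this count has no comparison. These comparisons share the same WT samples.

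The WT samples were not alike in these genes either. The member medians were 0.09 in WT1, 0.08 in WT2 and -0.15 in WT3. WT3 was the lowest WT sample in 37 of 40 members, against 39.5% of all genes, so that nearly the whole set was lower in that culture. These medians of WT1 and WT3 lie farther apart than the median difference between the groups, 0.19. The SD among clones had a median of 0.27 over the members and that among WT samples one of 0.14; over all genes these were 0.30 and 0.10.

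**Figure D2:**
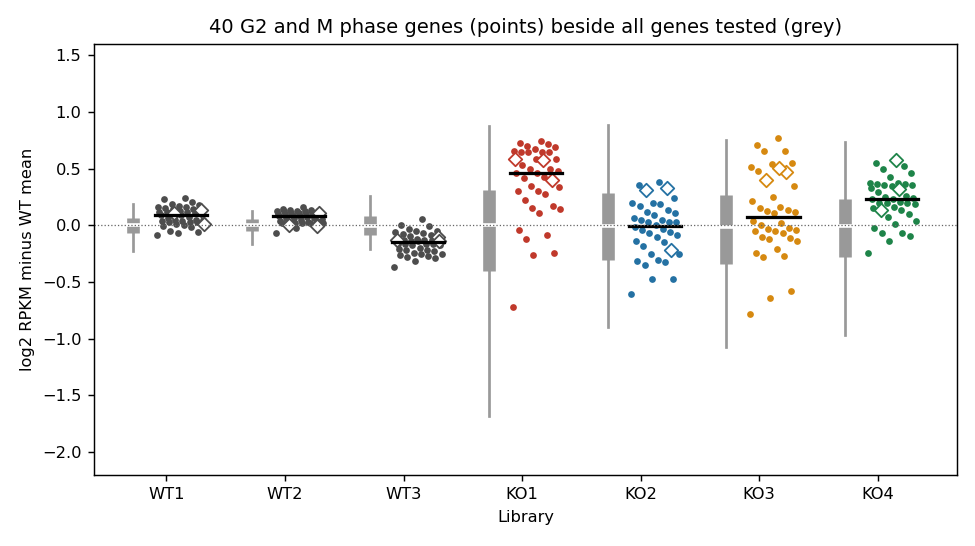
Difference from the WT mean (log2 RPKM, vertical axis) of the 40 genes as points in each library, with their median as a black line and the genes of chromosome 17 as open diamonds; grey bars give the middle 50% and grey lines the 5th to 95th percentile of the 11154 genes tested. The members' median is 0.46 in KO1, 0.23 in KO4 and -0.15 in WT3, while the median of all genes stays near 0.

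Each clone was also tested against WT, with the spread pooled over the WT samples and the other 3 clones, since 1 library has no spread of its own. Again 0 of 40 members were called in any clone, with the lowest adjusted p at 0.0632 in KO1 (NDC80), 0.210 in KO2 (CKS1B), 0.131 in KO3 (MAD2L1) and 0.582 in KO4 (TOP2A). Of all genes 4.70% were called in KO1 (0.932% higher and 3.77% lower), 0.323% in KO3 and 0% in KO2 and KO4. Each clone was left out of the spread it was tested against, so that spread differed between clones. These shares therefore do not rank the clones by distance from WT, and 0% called is not an absence of differences. At an unadjusted p under 0.05, 13 members were higher and 0 lower in KO1, against 9.03% and 15% of all genes. KO3 had 7 higher and 1 lower, against 7.54% and 9.44%. In KO2 there were 0 higher and 2 lower (7.11% and 10.1%), and in KO4 1 higher and 0 lower (3.11% and 4.09%).

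The calls in single clones depended on the spread taken. With the spread of the WT samples alone, 22 members were called higher and 1 lower in KO1 (all genes 19.2% and 24.9%, 44.1% in all), 10 and 3 in KO3 (14.2% and 19.9%), 6 and 0 in KO4 (10.4% and 14.4%) and 0 and 3 in KO2 (15.5% and 18%). The clones had a larger SD than the WT samples in 33 of the 40 members and in 90.4% of all genes, so the WT spread alone understates how far clones lie apart. By size alone, past 0.5 from the WT mean and outside the WT range, 17 members were higher and 1 lower in KO1 (all genes 14.4% and 21.1%), 8 and 3 in KO3 (11.3% and 16.6%), 3 and 0 in KO4 (9.50% and 13.0%) and 0 and 1 in KO2 (13.0% and 14.3%). With the WT spread, the 6 genes higher in KO4 were CDC25B, CKS1B, CKS2, TTK, KIF2C and TOP2A, and the 3 lower in KO2 were CKS1B, CENPA and KIF20A. With 1 of the other clones left out of the pooled spread, 1 to 3 members passed in KO1. Without KO2 these were NDC80, KIF2C and DLGAP5, without KO3 CKS2, NDC80 and NUSAP1, and without KO4 KIF20A. The share of all genes that passed in these fits was not taken, so these members have no comparison.

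Among the cyclins and their partners, the S and G2 cyclin CCNA2 had the largest mean difference. CCNA2 was at 5.67, 5.60 and 5.24 in WT1 to WT3 and at 6.22, 5.55, 6.04 and 5.83 in KO1 to KO4. KO1, KO3 and KO4 lay above all WT samples and KO2 among them (difference 0.41 ± 0.19 SE, limma, adjusted p = 0.337). The mitotic cyclin CCNB1 was at 7.33, 7.37 and 7.16 in WT and at 7.75, 6.93, 7.15 and 7.47 in the clones, so that 2 clones were above WT and 2 below. CCNB2 followed KO1 most, at 5.63 against 5.08 to 5.18 in WT. CDK1, the kinase that both cyclins bind, did not share this pattern: its clones, at 5.24, 5.14, 5.08 and 5.22, all lay within the WT range of 5.0 to 5.45. Its neighbours on chromosome 10 had medians of -0.18, -0.20, -0.26 and -0.35 in KO1 to KO4. Relative to them CDK1 was at 0.13, 0.05, 0.05 and 0.29.

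The small CDK-binding protein CKS2 had one of the highest levels in the set, at 7.74, 7.76 and 7.45 in WT and 8.38, 8.03, 7.38 and 8.17 in KO1 to KO4. KO3 was the only clone below the WT samples. Its paralogue CKS1B, on the long arm of chromosome 1, took another order, with KO2 lowest at 4.27 and KO4 highest at 5.25 against 4.82 to 4.91 in WT. The phosphatases that activate CDK1 were lowest in KO3, CDC25B at 5.22 against 5.79 to 5.92 in WT, and CDC25C at 3.51 against 3.70 to 3.84. Over the 8 genes of this role the median difference between the groups was 0.07.

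All 6 mitotic kinases and partners had a mean above WT, by 0.18 to 0.43. PLK1, the Polo kinase of mitotic entry and spindle assembly, was at 5.63, 5.46 and 5.35 in WT and at 5.59, 5.53, 5.96 and 5.68 in KO1 to KO4, so that KO3 stood highest and the other clones were close to WT1. AURKA, the Aurora kinase of the spindle poles, and TPX2, which activates it on microtubules, both followed KO1: AURKA was at 6.65 there against 6.01 to 6.34 in WT, and TPX2 at 7.82 against 7.18 to 7.40. TTK, the kinase that starts checkpoint signalling at kinetochores, was at 5.38 in KO1 and 5.34 in KO4 against 4.63 to 4.90 in WT, with KO2 and KO3 at 4.73 and 4.75. In none of these 4 did the groups separate.

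The checkpoint genes held 2 of the 6 members in which all clones lay above WT. BUB1B (chromosome 15, 40161023 to 40221136, hg38), which encodes the inhibitor BUBR1, was at 4.70, 4.67 and 4.35 in WT1 to WT3 and at 5.28, 4.74, 4.92 and 4.94 in KO1 to KO4. The clones were on average 1.32-fold higher (difference 0.40 ± 0.16 SE, limma, adjusted p = 0.283), but KO2 exceeded WT1 only narrowly. MAD2L1 (chromosome 4, 120055608 to 120067074), the MAD2 protein that binds CDC20, was at 4.09, 4.06 and 3.83 in WT and 4.30, 4.19, 4.70 and 4.25 in the clones. KO3 was the highest for this gene, and the mean difference was 0.37 ± 0.15 (limma, adjusted p = 0.304). BUB1, a kinetochore kinase, was also highest in KO3, at 5.15 against 4.25 to 4.62 in WT, whereas BUB3, their common binding partner, ran from 4.67 to 5.15 in the clones around a WT mean of 4.93.

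CDC20, the checkpoint's target and activator of the anaphase-promoting complex (chromosome 1, 43358955 to 43363203), had the second largest difference of means, 0.44 ± 0.22 (SE, limma, adjusted p = 0.369). Its levels were 7.55, 7.33 and 7.06 in WT1 to WT3 and 8.0, 7.27, 8.08 and 7.66 in KO1 to KO4. Here KO1, KO3 and KO4 exceeded all WT samples and KO2 lay among them. UBE2C, the ubiquitin-conjugating enzyme of the complex, was at 7.45 in KO1 and 7.35 in KO4 against 6.75 to 7.07 in WT, and at 6.62 in KO2.

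Kinetochore and centromere genes were the least shifted of the larger roles in the values as deposited, with a median difference of -0.01 over 5 genes. Relative to neighbouring genes on the chromosome, the medians of this role were 0.40, -0.16, 0.15 and 0.19 in KO1 to KO4. Those of all members were 0.37, -0.02, 0.15 and 0.27. NDC80, the microtubule-binding subunit of the outer kinetochore, was at 4.60, 4.68 and 4.53 in WT and at 5.26 in KO1, but at 4.28, 4.48 and 4.36 in KO2 to KO4. NUF2, its partner in the same complex, had the opposite order in KO1, at 4.56 against 4.70 to 4.90 in WT. CENPF, a kinetochore protein of late G2, was also lower in KO1, at 4.60 against 4.78 to 4.91 in WT. NUF2 and CENPF lie on the long arm of chromosome 1, where the neighbouring genes of KO1 were lower as well (medians of -0.60 and -0.74). CENPA, the histone variant of centromeres, was lowest in KO2 at 3.43 against 3.82 to 4.04 in WT, and CENPE, a kinetochore motor, was higher in KO1 and KO3, at 4.29 and 4.32 against 3.64 to 3.92.

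The kinesins held both wide and narrow spreads among clones. KIF2C, a microtubule depolymerase that corrects attachments, was at 5.41, 5.46 and 5.39 in WT, the smallest WT spread of the set, and at 6.07, 5.24, 6.08 and 5.78 in KO1 to KO4. Its mean difference was 0.37 ± 0.21 (SE, limma, adjusted p = 0.421), with KO2 below all WT samples. KIF20A, a cytokinesis kinesin, was at 6.70 in KO1 but at 5.57 and 5.47 in KO2 and KO3, against 5.96 to 6.11 in WT, and had the largest SD among clones, 0.57. KIF23, of the central spindle, was at 4.82 in KO1 against 3.81 to 4.29 in WT. KIF11, the bipolar spindle motor, and KIF20B kept their clones within or near the WT range, at 4.61 to 4.87 and 3.66 to 3.96.

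KIF4A, a chromosome-bound kinesin (X chromosome, 70290090 to 70420832), had the lowest mean difference, -0.28 ± 0.29 (SE, limma, adjusted p = 0.652). It was at 4.93, 4.85 and 4.69 in WT1 to WT3, at 4.10 and 4.04 in KO1 and KO3, and at 5.18 and 4.84 in KO2 and KO4. KO1 and KO3 were at 0.606 and 0.581 times the WT mean, while KO2 lay above all WT samples. Its neighbours on the X chromosome had medians of -0.70, 0.14, -0.78 and 0.00 in KO1 to KO4, so relative to them KIF4A was at -0.02, 0.21, -0.00489 and 0.01. In KO1, KO3 and KO4 its values thus lay within 0.02 of those of the surrounding genes.

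All 5 spindle assembly genes had a mean above WT. GTSE1, a microtubule-bound p53 regulator of G2 (chromosome 22, 46296741 to 46330810), was at 4.12, 3.95 and 3.72 in WT and 4.40, 4.12, 4.48 and 4.42 in KO1 to KO4. All clones were above all WT samples, although KO2 and WT1 agree to 2 decimals, and the difference was 0.42 ± 0.14 (SE, limma, adjusted p = 0.217). NUSAP1, a spindle-bundling protein (chromosome 15, 41332694 to 41381050), was at 5.33, 5.36 and 5.08 in WT and 5.91, 5.5, 5.39 and 5.5 in the clones, separated from WT by a margin far below the spread among clones. Its neighbours had medians of 0.33, 0.25, 0.20 and 0.09 in KO1 to KO4. Relative to them NUSAP1 was at 0.32, -0.01, -0.07 and 0.15. DLGAP5, TACC3 and HMMR, all of the mitotic spindle, were led by KO1, at 5.83, 5.10 and 5.63 against WT means of 5.15, 4.45 and 5.29.

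Of the cytokinesis genes, ANLN, an actin scaffold of the furrow, had the largest WT spread of the set, at 6.02, 5.90 and 5.40, and its clones were at 6.19, 5.87, 5.90 and 6.23. ECT2, which activates RhoA at the furrow, was at 5.78 to 6.14 in the clones and 5.77 to 6.15 in WT, so that the groups covered the same range. MKI67, the proliferation marker Ki-67 that coats mitotic chromosomes, was at 5.39, 5.25 and 5.05 in WT and at 5.81, 5.12, 5.12 and 5.39 in KO1 to KO4. KO1 lay above the WT samples, KO4 was level with WT1 to 2 decimals, and the mean difference was 0.13 ± 0.19 (limma, adjusted p = 0.762).

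**Figure D3:**
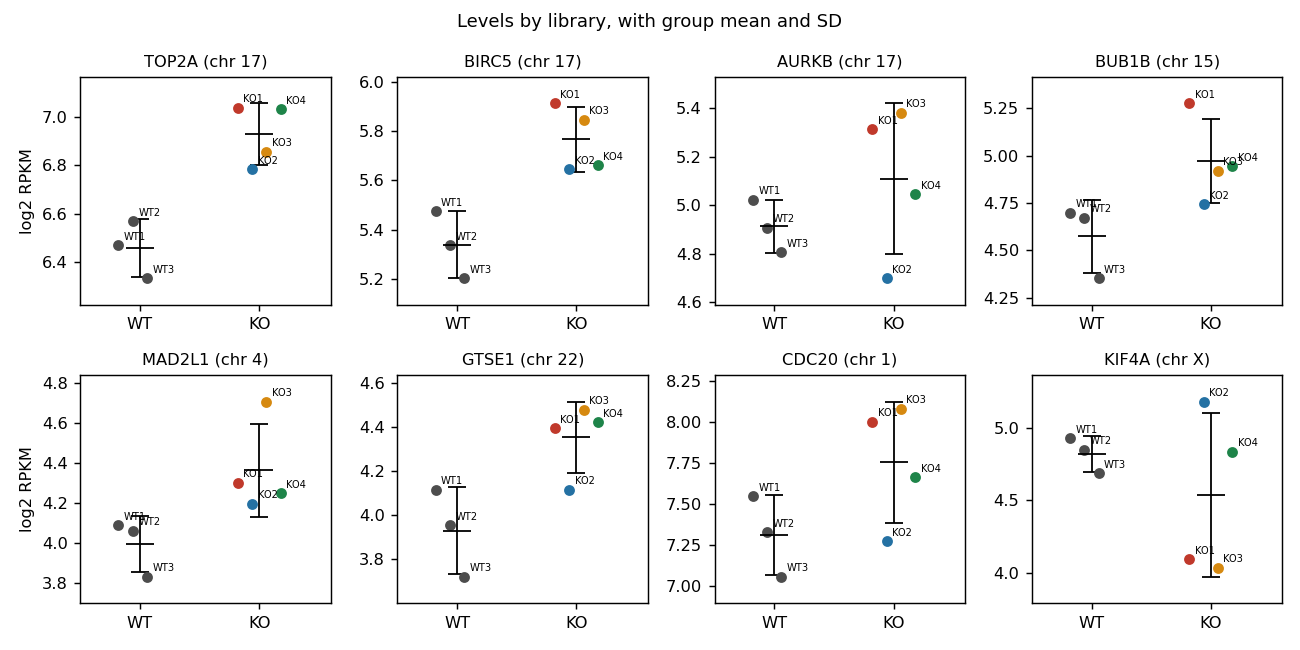
Levels in log2 RPKM (vertical axis, a separate scale in each panel) of 8 members in the WT samples and the clones, each library a labelled point and each group with its mean and SD (n = 3 and n = 4). The clones of TOP2A and BIRC5 lie above all WT samples, and KIF4A is low in KO1 and KO3 only.

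The 3 members on chromosome 17 are given apart, because neighbouring genes there were higher in the clones as well, though only slightly around AURKB in KO2 and KO4. Higher neighbours were not limited to this chromosome, as NUSAP1 above shows. TOP2A, the topoisomerase that untangles sister chromatids (40388516 to 40417950, minus strand), was at 6.47, 6.57 and 6.33 in WT1 to WT3 and at 7.04, 6.78, 6.86 and 7.03 in KO1 to KO4. No value overlapped, the clones were 1.39-fold higher on average, and the adjusted p of 0.134 (limma, 0.47 ± 0.11 SE) was the lowest of the set. BIRC5, or survivin, of the chromosomal passenger complex (78214186 to 78225636, plus strand), was at 5.47, 5.34 and 5.20 in WT and 5.91, 5.65, 5.85 and 5.66 in the clones. Here too the groups did not overlap, with a difference of 0.43 ± 0.12 (SE, limma, adjusted p = 0.166). AURKB, the kinase of that complex (8204733 to 8210600, minus strand), was at 5.02, 4.91 and 4.81 in WT and at 5.31, 4.70, 5.38 and 5.04 in the clones, with KO2 below all WT samples (0.20 ± 0.18, adjusted p = 0.610).

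To set each member against its surroundings, the median difference from WT was taken over the 50 nearest tested genes on its chromosome. Around TOP2A this median was 0.38, 0.34, 0.30 and 0.27 in KO1 to KO4, and TOP2A itself exceeded it by 0.20, -0.02, 0.10 and 0.31. Around BIRC5 it was 0.19, 0.26, 0.29 and 0.19, with BIRC5 above it by 0.39, 0.05, 0.21 and 0.13. Around AURKB it was 0.15, 0.04, 0.18 and 0.03, with AURKB at 0.25, -0.25, 0.29 and 0.11 relative to it. With the neighbours subtracted the group differences became 0.15 for TOP2A, 0.20 for BIRC5 and 0.10 for AURKB (limma, adjusted p = 0.566, 0.474 and 0.790), less than in the values as deposited by more than 1.5 times.

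For the 37 members outside chromosome 17 the neighbour medians centred on 0.11, 0.03, -0.05 and 0.00 in KO1 to KO4, and the members' median distance from their neighbours was 0.38, -0.02, 0.15 and 0.28. With the neighbours subtracted, 38 of all 40 members had a group mean above WT, where 48.1% of all positioned genes did, and the median difference was 0.18. The exceptions were ECT2, at -0.15, and CENPA, at -0.02. No member was called in this setting, where 1 gene of the whole table was. The largest differences there belonged to BUB1 at 0.36, CDC20 at 0.33, KIF20B at 0.33 and CCNA2 at 0.31, none of them on chromosome 17. On chromosome 10 the neighbours of CDK1, BUB3, KIF11 and KIF20B were below WT in every clone, and these genes lay above them in each.

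By clone, 37 members in KO1, 38 in KO4, 32 in KO3 and 18 in KO2 lay above their neighbours, against 50.1%, 49.9%, 50% and 50% of all genes. Members on the same side of WT as their neighbours numbered 33 of 40 in KO1 (70.4% of all genes), 32 in KO2 (66.6%), 34 in KO3 (69.1%) and 24 in KO4 (66.5%). Examples outside chromosome 17 were CDC25B in KO3, at -0.64 with neighbours at -0.42, and CKS2 in KO2, at 0.38 with neighbours at 0.35. PLK1 in KO1 went the other way, at 0.11 where its neighbours were at -0.38.

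**Figure D4:**
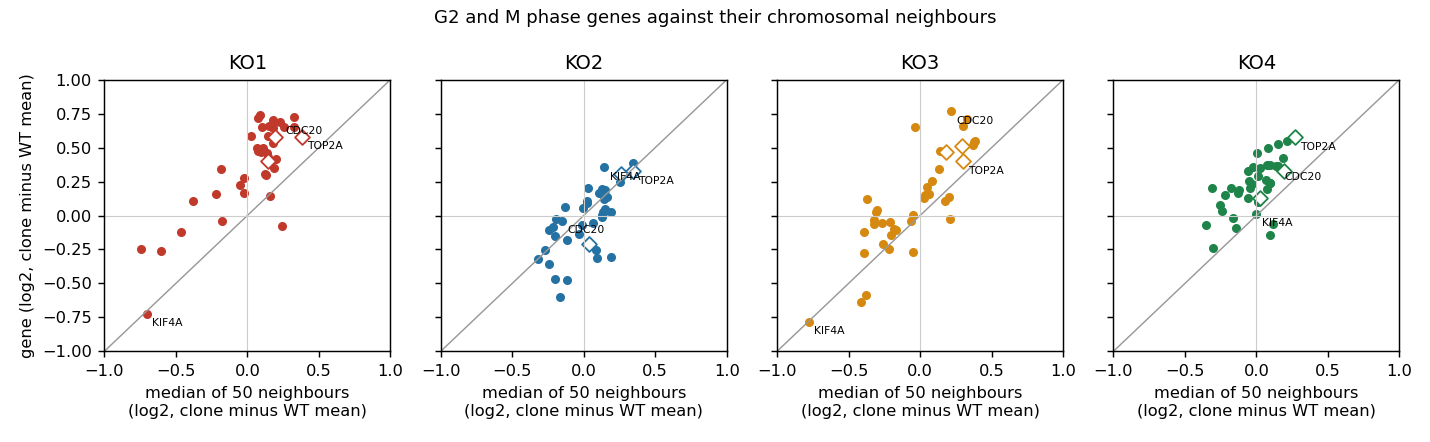
Each member's difference from the WT mean (vertical axis, log2) against the median difference of its 50 nearest tested genes on the chromosome (horizontal axis, log2), 1 panel per clone; open diamonds are the chromosome 17 members and the grey line marks equal values. Of the 40 points 37 lie above the line in KO1, 38 in KO4, 32 in KO3 and 18 in KO2.

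Other genes of the same phases were examined as a list of 72 further mitotic genes, of which 71 were tested and none passed for KO against WT (limma); 48 were above WT and 23 below, with a median of 0.12. At an unadjusted p under 0.05, 8 were higher and 0 lower. For this list and those below, the shares of all genes were 47.0% above WT, and 7.13% higher and 8.59% lower at that p. Their medians in KO1 to KO4 were 0.31, -0.04, 0.14 and 0.11, and that of WT3 was -0.16, so that KO1 was again highest and KO2 lowest among the clones. The genes with the smallest p were KIF18B, SPAG5, KIF18A and CCNF. KIF18B, a microtubule-depolymerizing kinesin on chromosome 17, was at 3.48, 3.20 and 3.04 in WT and 4.19, 3.60, 4.37 and 3.80 in KO1 to KO4 (0.75 ± 0.21 SE, limma, adjusted p = 0.167), while its neighbours had medians of 0.43, 0.36, 0.40 and 0.41. SPAG5, the spindle protein astrin and also on chromosome 17, differed by 0.54, and KIF18A, on chromosome 11, by 0.44. MELK, a mitotic kinase, was the only gene of this list called in a single clone, in KO1, where it rose from a WT mean of 4.93 to 5.74 (0.81 ± 0.17, limma, adjusted p = 0.0495) and its neighbours had a median of 0.52. It is named for that call.

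Transcriptional regulators of the cell cycle formed a list of 24, of which 22 were tested and none passed (limma). Above WT were 19 and below it 3, with a median of 0.16, where 47.0% of all genes were above. At an unadjusted p under 0.05 there were 4 higher and 0 lower, against 7.13% and 8.59% of all genes. FOXM1 was at a WT mean of 5.85 and at 6.13, 5.49, 6.04 and 6.03 in KO1 to KO4, with KO2 lowest, while MYBL2 was at 5.75 in WT and 5.93, 5.78, 5.82 and 5.34 in the clones. These 2 genes were named after their values had been seen. By the rule for named genes, the subunits of the MuvB core LIN52 and LIN54 were higher in all clones than in all WT samples, by 0.52 ± 0.16 and 0.28 ± 0.12 (SE, limma, adjusted p = 0.187 and 0.315). That order held in 8.88% of all genes, and the rule names genes for their small p. TFDP2, an E2F partner, and E2F8, a repressor E2F, differed by 0.72 and 0.54 with overlapping groups.

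The anaphase-promoting complex and its regulators were split evenly. Of 18 genes 9 were above WT and 9 below, with a median of 0.03 and none called (limma; 2 higher and 1 lower at an unadjusted p under 0.05). ANAPC15, on chromosome 11, was at 3.65 to 3.71 in WT and 2.96 to 3.26 in the clones (-0.54 ± 0.11, limma, adjusted p = 0.0978). CDC27, on chromosome 17, was higher by 0.47. The medians of their neighbours are not given here, and the part of chromosomal position in these opposite directions was not tested. Cohesin, condensin and separase genes gave a median of 0.01 over 19 genes with none called (limma; 1 higher and 3 lower at an unadjusted p under 0.05). Their median was 0.36 in KO1 and -0.19 in KO3. NCAPD3, a condensin subunit on chromosome 11, was at 3.71 to 3.98 in WT and 3.17 to 3.39 in the clones (-0.57 ± 0.12, adjusted p = 0.0963), where its neighbours had medians of -0.50, -0.66, -0.57 and -0.67, while SMC2, of the same complex, was higher by 0.38.

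Genes of the preceding phases were set beside them. Over 42 G1/S and replication genes the median difference was 0.05, with 25 above and 17 below WT and none called (limma; 3 higher and 2 lower at an unadjusted p under 0.05); the clone medians were 0.22, 0.00, 0.09 and 0.05. WT3 was below the WT mean in 41 of these 42 genes, at a median of -0.22, so its lower values were not limited to G2 and M genes. CCNE2, the G1/S cyclin, differed by 0.65, and MCM7, a helicase subunit on chromosome 7, by -0.49. MCM7 fell in KO1 (from 7.56 to 6.78, -0.78 ± 0.15, limma, adjusted p = 0.0389), where its neighbours had a median of -0.68. Over 13 G1 cyclins and CDK inhibitors the median was -0.10, with 5 above and 8 below WT and none called (limma; 0 higher and 2 lower at an unadjusted p under 0.05). CDKN1B, the inhibitor p27, was lower in all clones than in all WT samples (-0.32 ± 0.12, limma, adjusted p = 0.264), as were 10.1% of all genes. CDKN1A, or p21, was higher by 0.53 ± 0.38 (limma, adjusted p = 0.521). CDKN2B, the inhibitor p15, was the only gene of that list called in a clone, KO3, where it was near the level of genes without reads (-9.88 against 3.26 in WT, adjusted p = 0.0157).

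**Figure D5:**
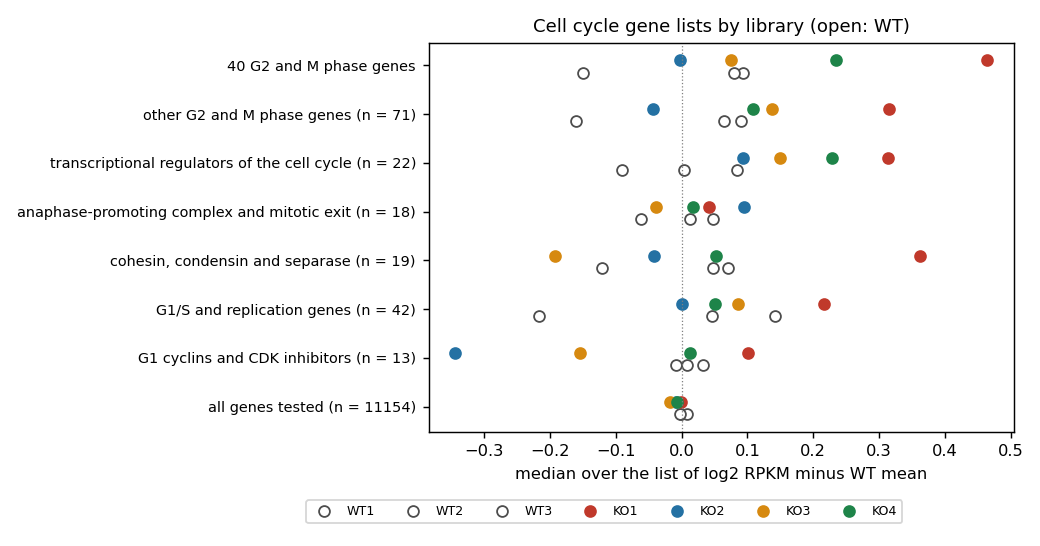
Median difference from the WT mean (horizontal axis, log2 RPKM) over each cell cycle list in every library, open circles for the 3 WT samples and filled circles for the clones, with the number of genes tested in each list. The G2 and M phase genes reach 0.46 in KO1 and the 71 other mitotic genes 0.31, while all genes tested stay near 0 in every library.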

How the data were processed

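Total RNA of the 7 libraries was made into Illumina TruSeq libraries, per the labels' protocols. The submitters' processing notes name build hg38, edgeR, HTSeq 0.11.2, STAR 2.5.3a and Trim Galore 0.4.1. Annotation, prior count, strand setting and filters are not given in the sources used here. What the authors deposited are log2 RPKM values, which were used without pseudocount or further scaling, and all were checked to lie within 20 of 0.

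The table holds no read totals. With an assumed prior count of 0.25 reads and GENCODE 29 exon lengths, the level of 7 genes without reads gave the mean library as 58.0 M reads in each case; sizes of single libraries were not estimated and no count test was run. Other values of the prior were not tried.

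Genes with log2 RPKM above 0 in at least 3 libraries were tested with limma (version 3.58.1, R version 4.3.3; trended empirical Bayes variances, two-sided, Benjamini-Hochberg adjustment over all 11154 genes, adjusted p under 0.05). Single clones were tested in a model of 3 groups: WT, that clone and the other clones. Positions from GENCODE 29 (GRCh38) matched 12312 genes (93.7%), 19 through an older symbol. The scripts were tested on simulated data. Alternatives covered the filter, the log scale, library scaling, the variance model, library weights, each library left out, the replicate number and chromosomal neighbours.

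Members and lists were chosen with earlier results of these data known. Named genes are ASH1L, any member, and up to 4 genes of each other list with the smallest unadjusted p; PAX8, which did not pass the filter, MELK, FOXM1 and MYBL2 were named after their values were seen.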

Additional observations from a re-analysis of the deposited data

How the results depend on the processing

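No member was called for KO against WT in any setting except quantile normalization (1, TOP2A at 0.57) and library weights (3: TOP2A at 0.46, BIRC5 at 0.36 and GTSE1 at 0.43; limma, adjusted p = 0.0194, 0.0391 and 0.0402). The median difference over the members stayed above 0 in every setting, from 0.11 without KO1 to 0.28 with quantile normalization, and the members above WT numbered from 26 without WT3 to 38 with neighbours subtracted. Counts over all genes, 46 as reported, were 75 on log2(RPKM + 1), 114 with quantile normalization, 1 with neighbours subtracted, 2146 with library weights and 0 to 248 with 1 library left out (0 without WT1, WT2 or WT3, 1 without KO4, 88 without KO3, 248 without KO2). Shares of all genes for the single-clone counts that follow are given above. With 1 library left out no such share was taken. Members called in KO1, KO2, KO3 and KO4, 0 in each as reported, were 23, 3, 13 and 6 with the spread of the WT samples alone, 18, 1, 11 and 3 by a log2 difference past 0.5 outside the WT range, and 0 to 3 in KO1 with 1 library left out (0 without a WT sample, 1 to 3 without another clone).

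Some members changed sign between settings. None of those listed next was called for KO against WT in any setting. With neighbours subtracted the differences became CDK1 0.13, CDC25B 0.0404, CKS1B 0.0311, BUB3 0.13, NDC80 0.22, NUF2 0.11, KIF20A 0.00442 and KIF4A 0.0536. With quantile normalization they became CDC25B 0.0686, CKS1B 0.0014, BUB3 0.0193, NDC80 0.0407 and NUF2 0.00143, with centred libraries CDC25B 0.0227 and NDC80 0.0238, and with library weights CDC25B 0.24, CKS1B 0.16, NUF2 0.0282, KIF11 -0.0669, KIF20A 0.00341 and HMMR -0.0859. With 1 library left out the ranges were BUB3 -0.13 to 0.0331, CCNB1 -0.10 to 0.17, CDC25B -0.13 to 0.20, CENPA -0.20 to 0.0125, CENPF -0.00556 to 0.15, CKS1B -0.21 to 0.12, HMMR -0.0779 to 0.0906, KIF11 -0.14 to 0.10, KIF20A -0.32 to 0.092, KIF20B -0.0148 to 0.20, MKI67 -0.0172 to 0.21, NDC80 -0.23 to 0.0959 and NUF2 -0.14 to 0.0300. The cause was not tested.

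The numbers in the labels name clones, and the main test did not pair them with WT samples. Deviations of WT1 and KO1, WT2 and KO2, and WT3 and KO3 correlated at 0.06, 0.07 and -0.01 across genes. KO1 and KO2 correlated best with the WT sample of their own number, and KO3 with WT1 (0.08). Correlations this near 0 cannot decide whether the numbers pair the samples. With the number as a replicate block KO4, whose number no WT sample shares, adds nothing to the difference, so the differences equal those without KO4 and the changes cannot be put down to the block. In that fit 0 genes were called in all (1 without KO4 and without the block), 29 members were above WT with a median of 0.17, and CCNB1, CENPF and NDC80 were at -0.0107, -0.00208 and 0.0694. The counting error of 2.84% for the member with the fewest estimated reads rests on the assumed prior count.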
